A study of Rattus norvegicus with 4 samples.

Results

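The lens capsule with its remaining lens epithelial cells (LECs) was compared between 2 W (14 days) and day 0 after extracapsular lens extraction (ECLE), an operation in which the lens content is taken out and the capsule is left in place. The comparison used the array of Rat LEC at 2W and the array of Rat LEC at Day0, 1 array a side, of 4 arrays in all. Both groups were female albino Sprague-Dawley rats operated at 7 weeks of age. Day 0 capsules were taken once surgery was completed, so the control had also been operated. The rats were 7 weeks old at day 0 and 9 weeks old at 2 W, so that age and time after ECLE cannot be told apart. The 2 arrays at 1 W (7 days, rats of 8 weeks) are labeled as biological replicates and are given beside each value. The number of capsules on each array was not found in the sources used here. The study describes a larger number of samples for each time than there are arrays in this comparison. With 1 array a side the comparison is given as a description, with no test.

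The lens grows from a single epithelial sheet under the anterior capsule. At the equator its cells leave the cell cycle, elongate and become fiber cells, which fill with crystallins, build a beaded filament and a special membrane, and finally clear their organelles. Cells left on the capsule after surgery can follow that path and form swollen fiber-like masses, or can turn into matrix-producing, contractile cells by epithelial-mesenchymal transition (EMT). Both contribute to posterior capsule opacification (PCO), the clouding that follows cataract surgery.

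Each array was divided by its mean intensity over 31042 probe sets, and all levels are multiples of that mean. Where 4 values of a gene stand in a row, they are day 0, replicates 1 and 2 at 1 W, and 2 W. A gene was represented by its brightest probe set, which gave 14217 genes. Of these, 10455 reached the level filter, the 40th percentile of the mean log2 level of all probe sets, and 3762 did not and were left out of the counts. The arrays are labeled as LECs, and markers of both lens epithelium and lens fibers were found on them. All 8 lens epithelium markers reached the filter, 7 of them lay above the 50th percentile of the array at day 0 and at 2 W, and so did all 8 lens fiber markers measured. The summed level of the epithelium markers was 103 at day 0, 79.8 and 84.7 at 1 W, then 53.03 at 2 W, and that of the fiber markers was 119, 121, 99.8 and 325. The mean intensity ranged from 165 at 2 W to 244 at day 0, and the brightest 1% of probe sets held 29.7% of the signal at 2 W and 22.6% at day 0. Beta-actin signal at the 3' end relative to the 5' end, which reflects RNA integrity, was highest at day 0 (2.32) and lowest at 2 W (1.61). The same ratio of GAPDH differed little, with 1.16, 1.12, 1.18 and 1.10. The study reports a high RNA integrity number for all its samples.

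At 2 W, 690 genes were over 2.0-fold the day 0 level (6.6% of the genes at or above the filter) and 1287 were under 0.5-fold (12.3%). The fold rules are those of the methods of the study. As a yardstick of replicate error, a gene was also required to differ by more than the 95th percentile of the difference between the 1 W replicates at its level. That bar ran from 1.48-fold for bright genes to 3.03-fold for dim ones, and 603 genes (5.77%) were higher and 1167 (11.2%) lower beyond it. For comparison, the 1 W replicates differed from each other by over 2-fold in 501 genes, or 4.79%, whereas 18.9% of genes did so between 2 W and day 0. The median log2 ratio of all genes was -0.21 (interquartile range -0.65 to 0.25), and values of single genes and lists are read against it. Counts within gene lists are likewise read against the 6.6% higher and 12.3% lower of all genes. The share of higher among all genes past a fold rule was 34.9%, but it became 61.1% when arrays were divided by their median, 64.9% by their 75th percentile, 55.1% after quantile normalization, 7.35% as deposited and 6.36% when divided by the actin and GAPDH controls. The balance between higher and lower genes therefore depends on the scaling. Counts of gene lists with small ratios move with it too, and their range over the 6 scalings is given where it is wide. In bulk samples, fewer cells of a type and less RNA per cell cannot be told apart.

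**Figure D1:**
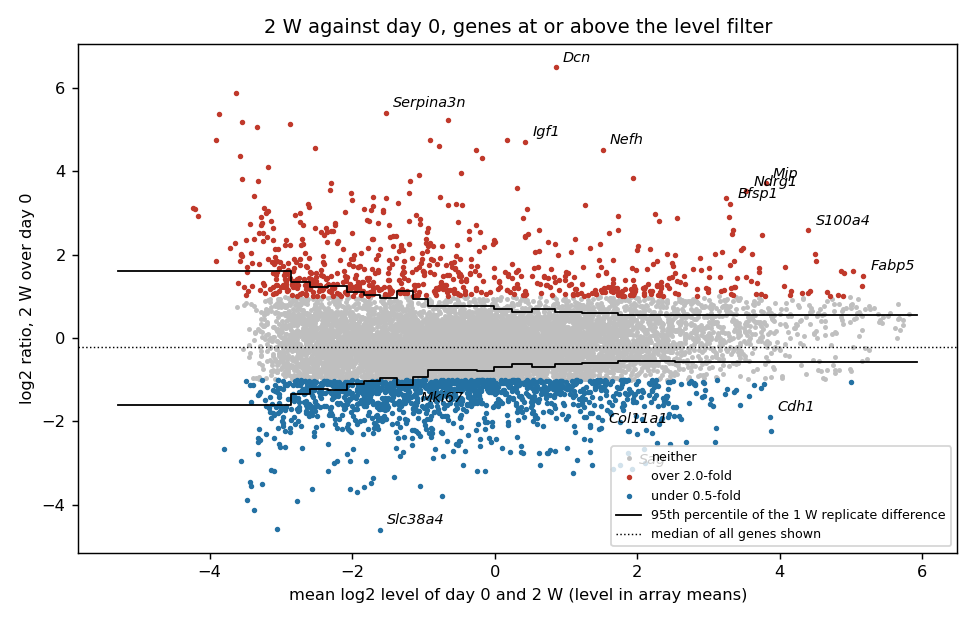
Each point is 1 of the 10455 genes at or above the level filter, with the mean log2 level of the day 0 and 2 W arrays on the x axis and the log2 ratio of 2 W to day 0 on the y axis. Red and blue points are over 2.0-fold and under 0.5-fold, black steps show the bar from the 1 W replicates and the dotted line the median of -0.21. *Dcn* stands highest at 6.50, while *Mip*, *Bfsp1* and *Ndrg1* combine a large ratio with a high level.

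*Dcn*, *Ifi27l2b*, *Serpina3n*, *Srpx2* and *Col1a1* had the 5 highest ratios at 2 W. *Dcn*, which encodes the small proteoglycan decorin, was 0.190 at day 0, 19.5 and 2.41 on the replicates at 1 W and 17.2 at 2 W, a 90.3-fold difference from day 0. Its 1 W replicates differed widely and the 2 W value fell between them. *Igf1*, a growth factor that acts on lens and connective tissue cells, was 0.263 at day 0, 5.49 and 1.53 at 1 W, then 6.87 at 2 W, which was 26.1-fold over day 0, and its 3 bright probe sets had log2 ratios from 4.70 to 5.82. *Mgp*, the inhibitor of calcification matrix Gla protein, was 1.02, 10.1, 2.13 and 14.4 on the 4 arrays in order of time. For *Igf1* and *Mgp* the 2 W array was the highest of the 4. *Serpina3n*, a serine protease inhibitor, went the other way after 1 W, with 0.0533 at day 0, 3.66 and 3.43 at 1 W, then 2.25 at 2 W. Among the 25 highest ratios, which ran from 90.3-fold to 13.5-fold, the 2 W level exceeded both 1 W replicates in 11 genes and was below both in 6. *Ifi27l2b*, an interferon-induced gene, was 0.0105, 1.30, 0.198 and 0.621. The others of the 25 included the collagens *Col1a1*, *Col3a1*, *Col5a2*, *Col6a1* and *Col6a3*, the bone morphogenetic protein (BMP) antagonist *Grem1*, the decoy receptor *Tnfrsf11b*, the cathepsin *Ctsk*, the interferon-induced *Gbp2* and *Gbp7*, the contractile gene *Tagln* and the cell cycle inhibitor *Cdkn2b*. In 11 of the 25 the day 0 level was under the 20th percentile of its array, where ratios are least certain. With both arrays floored there, *Ifi27l2b* was 14.3-fold, *Grem1* 11.8-fold and *Tnfrsf11b* 7.91-fold over day 0.

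*Nefh*, the heavy chain of neurofilaments, was also among the 25. It was 0.596 at day 0, 1.88 and 1.76 at 1 W, then 13.7 at 2 W. The 1 W replicates lay close together and the 2 W array far above them, with a 22.9-fold difference from day 0. The first gene outside the 25 was *Mip*, with a log2 ratio of 3.72, just under the 3.76 of *Fhl2*, the last one inside.

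**Figure D2:**
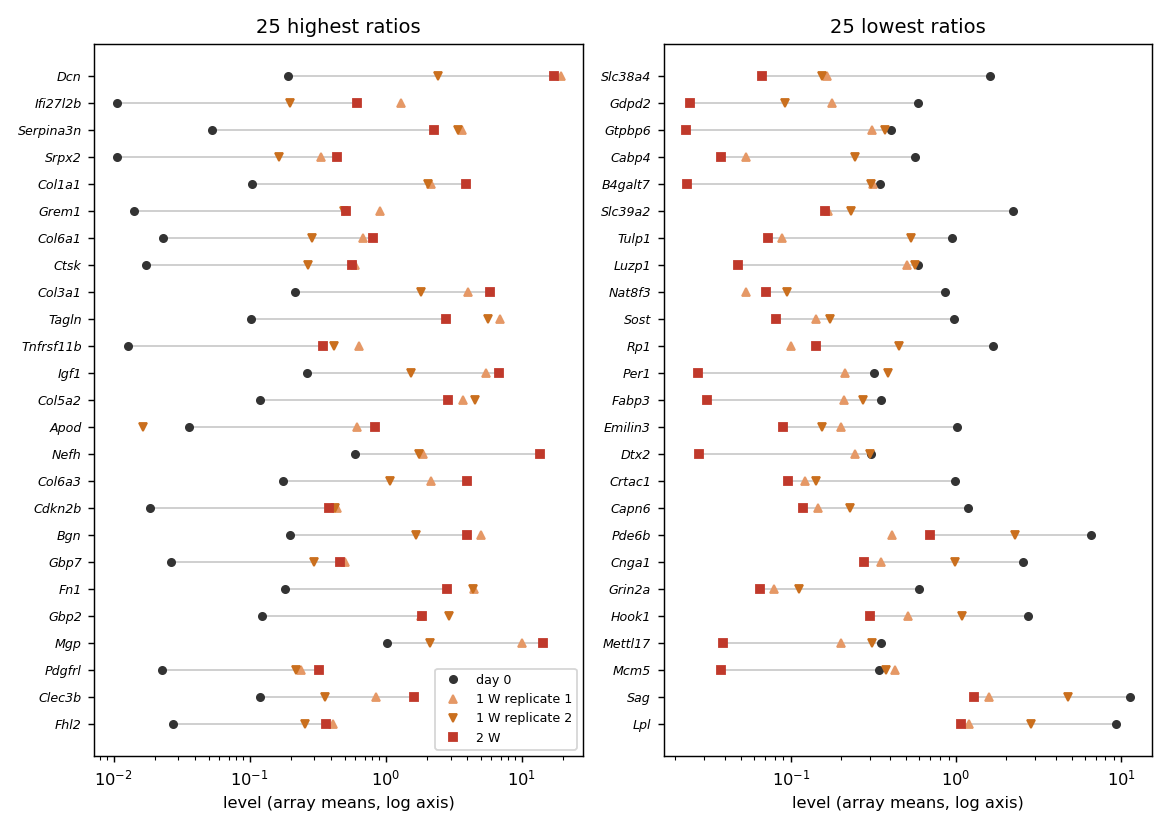
Levels in array means on a log axis for the 25 genes with the highest (left) and the 25 with the lowest (right) ratio of 2 W to day 0, each symbol being 1 array and the grey line joining day 0 and 2 W. For *Nefh* the 1 W replicates lie well below 2 W, whereas for *Tagln* they lie above it, and on the right *Gtpbp6*, *B4galt7*, *Luzp1*, *Per1*, *Fabp3*, *Dtx2*, *Mettl17* and *Mcm5* are low on the 2 W array alone.

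Of the 25 lowest ratios 8 belonged to members of a gene list, among them the photoreceptor markers *Rp1*, *Pde6b*, *Cnga1* and *Sag*. *Slc38a4*, a neutral amino acid transporter, was 1.61 at day 0, 0.166 and 0.155 at 1 W, then 0.0666 at 2 W, which was 24.2-fold below day 0. *Slc39a2*, a zinc transporter, was 2.22, 0.169, 0.231 and 0.162 in the same order, or 13.7-fold lower. Both were thus already low on the 2 arrays at 1 W. *Sost*, the Wnt antagonist sclerostin, was 0.971 at day 0, 0.141 and 0.172 at 1 W, then 0.0812 at 2 W. *Lpl*, lipoprotein lipase, was 9.33 at day 0, 1.19 and 2.85 at 1 W, then 1.07 at 2 W, which was 8.76-fold below day 0. In 22 of the 25 the 2 W level was below the other 3 arrays, an order favored by their choice for a low 2 W level. The 25th gene was *Lpl* at -3.13, and the next one outside had a log2 ratio of -3.05.

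In 18 genes the other 3 arrays lay within 1 log2 unit of each other and 2 W was over 2 log2 units below them, and 1 of the 18 had a second bright probe set. By the same rule the day 0 array alone was low in 40 genes and high in 12, and the 1 W arrays in 0 to 3. *Gtpbp6*, the 1 of the 18 with a second bright probe set, was 0.401, 0.310, 0.370 and 0.0232. Of its 4 probe sets 2 were bright, with log2 ratios of -4.11 and -1.91. Its 2 W value was under the 20th percentile of the array, and with both arrays floored there the difference was 9.48-fold. *B4galt7*, *Luzp1*, *Per1*, *Fabp3*, *Dtx2*, *Mettl17* and *Mcm5* were of this kind too. The median percentile of the 18 genes was 55.9 at day 0 and 18.8 at 2 W. *Per1* and *Mcm5* had no second bright probe set, and their 2 W values were under the 20th percentile too.

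Genes of lens fiber membrane and filaments were higher at 2 W, and no member was under 0.5-fold. Of the 17 members at or above the filter, 13 were over 2.0-fold, all 13 beyond the bar, and the median log2 ratio was 1.68 against -0.21 for all genes. The medians of the same members were 0.16 and -0.21 on the 1 W replicates, and in all 13 genes the 2 W level was above the other 3 arrays. The 13 were chosen by a high 2 W level, which favors that order. *Mip*, the water channel of fiber membranes, was 3.85 at day 0, 13.7 and 5.42 at 1 W, then 50.7 at 2 W, a 13.2-fold difference. *Bfsp1*, which encodes filensin of the beaded filament, was 3.23 at day 0, 0.977 and 0.575 at 1 W, then 30.2 at 2 W. Both 1 W replicates were therefore below day 0 and the 2 W array was 9.35-fold above it. *Lenep*, a lens protein, had the same shape with 1.70, 1.27, 0.736 and 13.4. *Caprin2*, an RNA-binding protein of fiber cells, was 2.16, 2.67, 1.73 and 15.9 and *Tdrd7*, which regulates messenger RNA in the lens and was chosen after its values were seen, was 5.75, 7.92, 6.46 and 31.8. *Caprin2* and *Tdrd7* were thus near day 0 at 1 W and well above it at 2 W. Across the scalings, 9 to 13 of the 17 were over 2.0-fold and the median ranged from 1.06 to 1.99.

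*Bfsp1* was below day 0 at 1 W and far above it at 2 W, and the 250 bases before its RefSeq gene start (GRCr8, chr3:151682838-151683087, minus strand) are shown for that reason, with the 6-letter half-site TGCTGA of Maf transcription factors, which act in fiber cells, in capitals:
Bfsp1: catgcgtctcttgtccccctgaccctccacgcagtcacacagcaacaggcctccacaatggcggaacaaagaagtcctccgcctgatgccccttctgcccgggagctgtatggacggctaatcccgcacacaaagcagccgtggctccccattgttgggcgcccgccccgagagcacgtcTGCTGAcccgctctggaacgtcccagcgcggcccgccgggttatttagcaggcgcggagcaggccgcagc
The match ended 65 bases before the start. Among the 12 higher fiber genes with a promoter entry, 3 held TGCTGA on either strand (*Bfsp1*, *Lim2* and *Tdrd7*), and 15.1% of all 33469 promoter windows of this length did. The share among the fiber genes is thus a small count near that of all promoters.

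**Figure D3:**
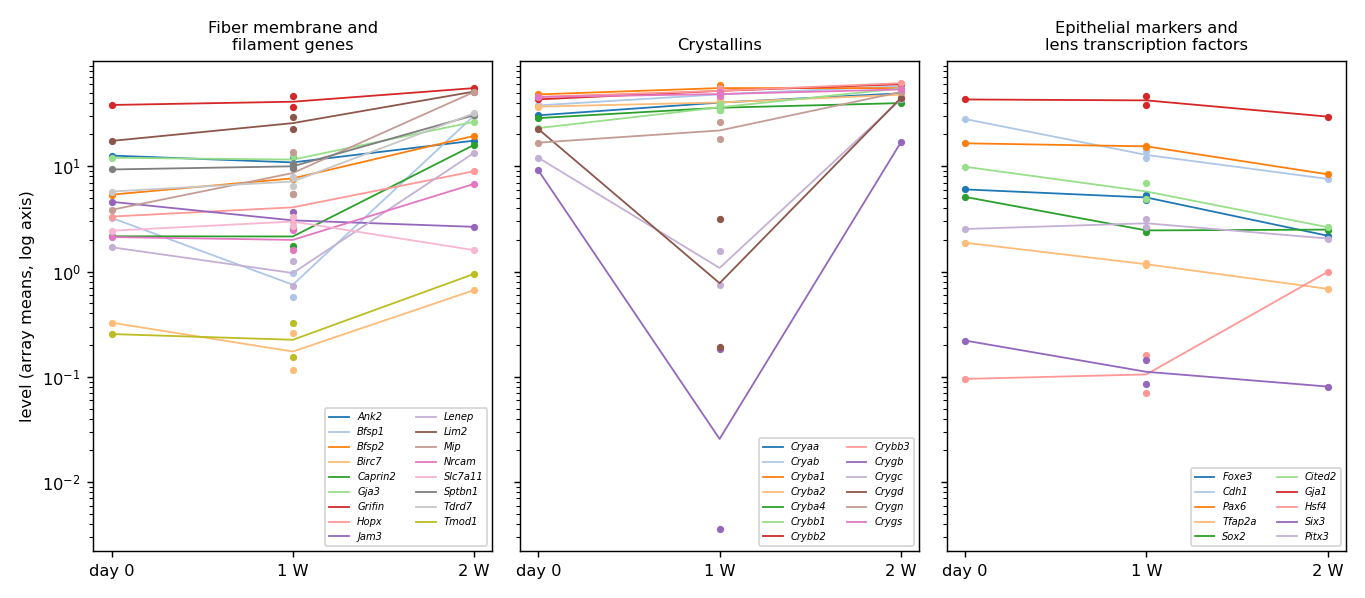
Levels in array means on a log axis for the fiber membrane and filament genes, the crystallins, and epithelial markers with lens transcription factors, at day 0, 1 W and 2 W. Points are single arrays and lines pass through the geometric mean of the 1 W replicates. The gamma crystallins *Crygb*, *Crygc* and *Crygd* dip at 1 W and are above day 0 at 2 W, as is *Bfsp1*, while *Cdh1*, *Foxe3* and *Tfap2a* are lowest at 2 W.

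The crystallins divided by class. Of 5 gamma crystallins at or above the filter 2 were over 2.0-fold, and the median log2 ratio was 0.98, after -2.85 and -4.02 on the 1 W replicates. *Crygc* was 12.0 at day 0, 1.57 and 0.744 at 1 W, then 43.1 at 2 W, or 3.58-fold over day 0. *Crygb* and *Crygd*, chosen after their values were seen, were 9.14, 0.183, 0.00362 and 16.9, and 22.5, 3.13, 0.192 and 44.4. Both 1 W replicates were thus below day 0, but by very different amounts. *Crygn* was 16.7, 26.4, 18.1 and 50.6, with no dip at 1 W. Among the 8 alpha and beta crystallins only *Crybb1* was over 2.0-fold, with 23.0 at day 0, 38.6 and 34.0 at 1 W, then 54.8 at 2 W. All 8 had positive ratios, with a median of 0.48 that fell below 0 as deposited and with the control scaling. At day 0 they lay at or above the 99.6th percentile of the array.

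Of the 8 lens epithelium markers 5 were under 0.5-fold at 2 W. Among these *Six3*, with a log2 ratio of -1.45, lay within the bar, and *Sox2*, at -1.03, was close to the fold rule. *Cdh1*, the epithelial cadherin, was 28.0 at day 0, 13.8 and 11.8 at 1 W, then 7.58 at 2 W, which was 3.70-fold below day 0. *Foxe3*, a transcription factor of the undifferentiated epithelium, was 6.02, 5.36, 4.75 and 2.19. For both genes the 2 W array was the lowest of the 4. *Tfap2a*, another epithelial factor, was 1.88, 1.19, 1.15 and 0.685, and *Cited2*, a transcriptional co-regulator needed for lens formation, was 9.88, 4.83, 6.85 and 2.64. *Pax6*, named as a marker, was 16.5 at day 0 and 8.38 at 2 W, with a log2 ratio of -0.98 that did not pass the fold rule, and nor did those of the markers *Gja1* (-0.54) and *Pitx3* (-0.30). Among 14 lens transcription factors 5 were under 0.5-fold, 4 of them beyond the bar, and 1 was over 2.0-fold. That one was *Hsf4*, the heat shock factor of differentiating fibers, with 0.0955 at day 0, 0.159 and 0.0697 at 1 W, then 0.991 at 2 W, a 10.4-fold difference. *Maf*, the brightest factor of the list, had a log2 ratio of 0.11. Of 14 junction and keratin genes 4 were lower, *Pkp2*, *Cgn* and *Krt18* next to *Cdh1*, and 1 was higher within the bar, with a median log2 ratio of -0.17, near that of all genes.

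Ion pumps and transporters of the lens were lower too, with 8 of 14 under 0.5-fold, none over 2.0-fold and a median log2 ratio of -1.03. In the scalings this median ranged from -1.65 to -0.71 and the lower genes from 4 to 11. *Atp1b1*, the beta subunit of the sodium pump, was 10.1 at day 0, 5.26 and 6.31 at 1 W, then 2.42 at 2 W, or 4.19-fold lower. *Slc5a3*, the sodium/myo-inositol cotransporter that loads cells with an osmolyte, was 8.81, 1.48, 2.16 and 1.79. *Slc4a4*, a bicarbonate transporter, was 4.78, 3.08, 3.48 and 1.39, and *Slc12a2*, a chloride cotransporter, was 6.39, 3.03, 3.02 and 2.31. The inositol transporter was therefore low from 1 W on, and the pump subunit and the bicarbonate transporter were lowest at 2 W. *Atp1b3*, the brightest member, was not past the fold rule (log2 ratio -0.98).

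Contractile genes, the hallmark of myofibroblasts, were higher at 2 W in 11 of 20 members, with none under 0.5-fold and a median log2 ratio of 1.52. The 1 W medians were 1.599 and 1.06. *Tagln*, which encodes transgelin of the smooth muscle cytoskeleton, was 0.103 at day 0, 6.95 and 5.69 at 1 W, then 2.76 at 2 W. The 2 W array was thus 26.9-fold over day 0 and below both 1 W replicates. *Mylk*, the kinase that switches on smooth muscle myosin, was 0.240, 4.58, 0.838 and 2.19, and *Cnn1*, calponin, was 0.0432, 0.374, 0.0564 and 0.301. For both the 1 W replicates were far apart and 2 W fell between them, as it did in 6 of the 11 genes. *Acta2* encodes the smooth muscle actin whose protein the study stained in injured mouse lenses. It was 0.764 at day 0, 1.51 and 1.35 at 1 W, then 1.20 at 2 W. This is 1.57-fold and within the bar of 0.78 log2 units. *Tpm1* was 3.27, 5.42, 6.18 and 2.97, with a log2 ratio of -0.14, and its 5 bright probe sets ranged from -0.61 to 1.84. Of 10 EMT factors and cadherins 4 were over 2.0-fold, among them *Cdh11*, a mesenchymal cadherin, with 0.756, 3.94, 2.999 and 3.71, and *Prrx1*, *Runx1* and *Twist1*, of which *Twist1* lay within the bar.

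Extracellular matrix genes were found on both sides. *Col1a1* was 0.104 at day 0, 2.16 and 2.05 at 1 W, then 3.91 at 2 W, and *Col3a1* was 0.216, 4.02, 1.82 and 5.86. Both chains of interstitial collagen were thus highest at 2 W, at 37.6-fold and 27.1-fold over day 0. Of the minor fibrillar chains, *Col5a2* was 24.3-fold over day 0, whereas *Col11a1* and *Col5a3* went the other way. *Col11a1* was 5.93, 4.13, 5.32 and 1.33, with all of its 3 bright probe sets at or under -2.16. *Col5a3* was 0.256, 0.259, 0.422 and 0.0574, and was 1 of the 18 genes low on the 2 W array alone. Among 9 fibrillar collagens 3 were over 2.0-fold and 2 under 0.5-fold. *Col1a2*, the partner chain of *Col1a1*, had a log2 ratio of 0.37. Of 8 small leucine-rich proteoglycans 4 were over 2.0-fold, with *Lum* (lumican) next to *Dcn* and *Bgn* (biglycan). Of 29 matrix glycoproteins 13 were over 2.0-fold and 2 under 0.5-fold. *Fn1*, fibronectin, was 0.182 at day 0, 4.50 and 4.36 at 1 W, then 2.84 at 2 W, so that the 2 W value was below both replicates.

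Of 21 basement membrane genes 8 were under 0.5-fold and 1, *Lama4*, was over 2.0-fold, with a median log2 ratio of -0.33, close to the -0.21 of all genes. *Hspg2*, which encodes the heparan sulfate proteoglycan perlecan, was 9.95 at day 0, 3.07 and 3.35 at 1 W, then 2.56 at 2 W, or 3.89-fold lower. *Lama5*, a laminin chain, was 3.93, 1.28, 1.28 and 1.02. *Col4a1* and *Col4a2*, the main collagen chains of the capsule and chosen after their values were seen, were 46.2 and 19.2 at day 0 and 22.1 and 7.28 at 2 W, with 1 W values of 20.6 to 22.0 and of 7.18 to 7.34. *Col4a6*, another collagen chain of basement membranes, was 19.0, 10.3, 9.01 and 6.25. *Col4a1* and *Col4a2* were thus as low at 1 W as at 2 W, whereas in 6 of the 8 lower genes, *Col4a6* among them, 2 W was below the other 3 arrays. The 8 were chosen by a low 2 W level, which favors that order. Collagen processing enzymes had 5 of 19 members under 0.5-fold (26.3%, against 12.3% of all genes) and none over 2.0-fold. Over the 6 scalings 3 to 11 of them were lower. *Plod1*, a lysyl hydroxylase, was among the 5 with 5.87, 3.24, 3.23 and 2.41. Among 23 proteases and inhibitors 4 were higher and 4 lower, each 17.4%, against 6.6% and 12.3% of all genes. Their median of -0.10 was near that of all genes. *Mmp2*, the gelatinase, was 0.127, 0.825, 0.839 and 1.20, and *Timp3*, a metalloproteinase inhibitor bound to matrix, was 14.1, 6.18, 8.42 and 4.69.

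**Figure D4:**
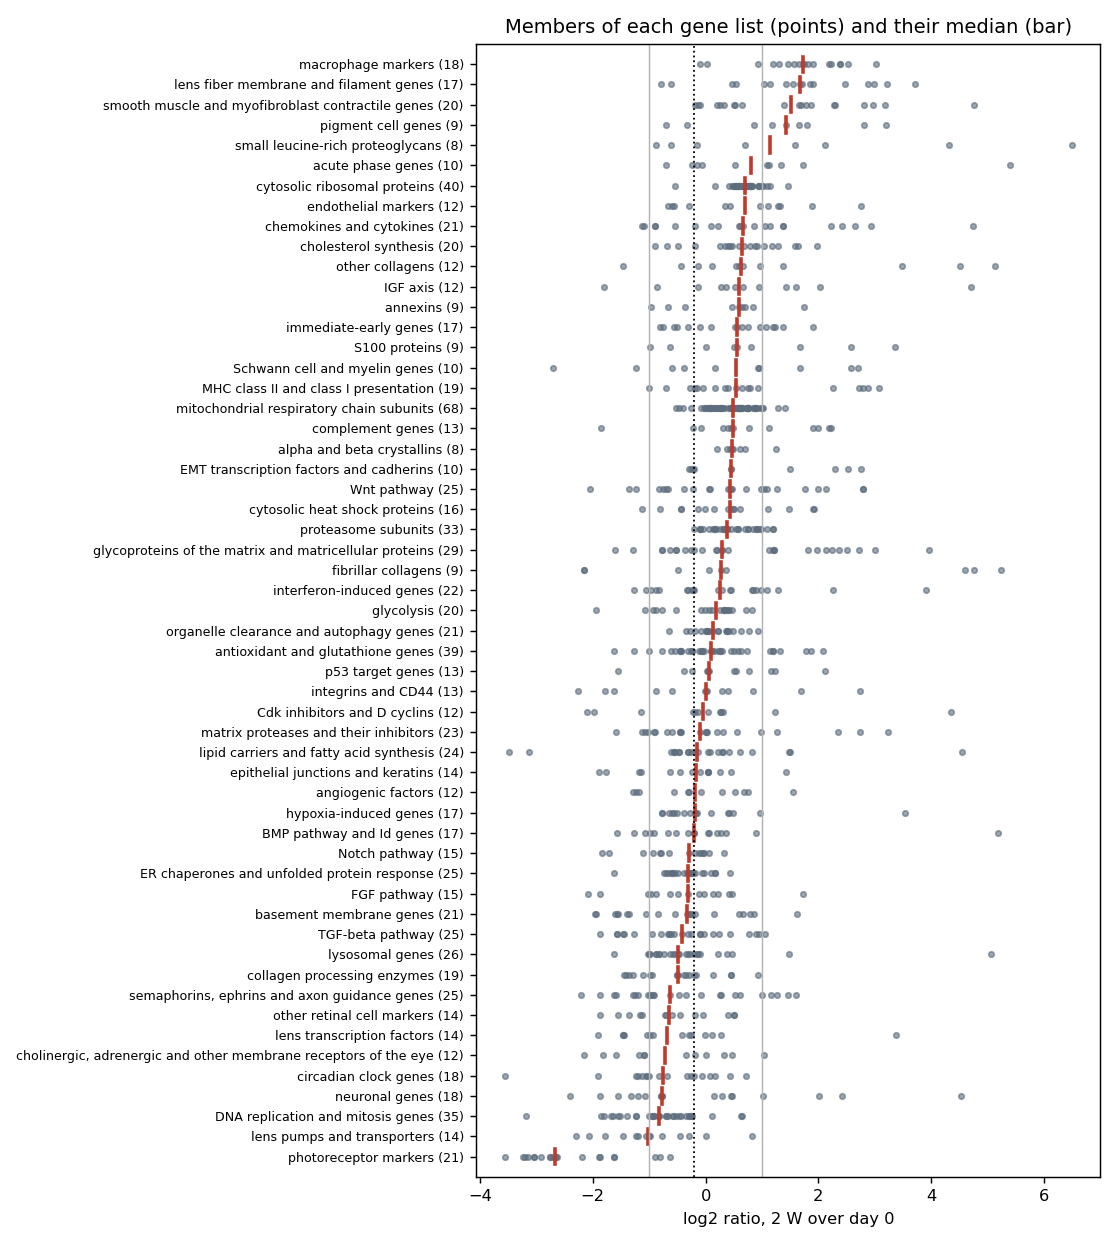
Log2 ratios of 2 W to day 0 for members at or above the filter (points) of each gene list with 8 or more such members, and their median (red bar), ordered by the median, with the number of members in brackets. The dotted line is the median of all genes and grey lines mark 2-fold. Photoreceptor markers lie lowest, with a median of -2.66, and macrophage markers, fiber genes and contractile genes highest, at 1.74, 1.68 and 1.52.

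Of 25 TGF-beta pathway genes 6 were under 0.5-fold and 1, *Fst*, was over 2.0-fold within the bar. In this scaling more of all genes were lower (12.3%) than higher (6.6%) as well. With the array median or the 75th percentile 5 of the list were lower and 4 higher, while over all genes more were higher than lower. As deposited 12 of the list were lower and with the controls 13, with none higher, and more of all genes were lower there too. *Inhba*, the activin subunit, was 10.9 at day 0, 5.82 and 6.69 at 1 W, then 2.998 at 2 W, and *Ltbp3*, which holds latent TGF-beta in the matrix, was 4.03, 3.17, 3.29 and 1.36. *Bambi*, a decoy receptor, was 2.85, 0.787, 0.829 and 0.964. The first 2 were lowest at 2 W, and *Bambi* was low from 1 W on. Of 25 Wnt pathway genes 8 were over 2.0-fold and 3 under 0.5-fold, but 5 and 7 as deposited and 5 and 8 with the controls. The ligand *Wnt7a* was 0.266, 0.465, 0.205 and 1.84, and the ligand *Wnt5b* was 0.166, 0.233, 0.267 and 1.15, both highest at 2 W, while the list median of 0.44 fell below 0 in the latter 2 scalings. The receptor *Fzd4* was 1.73, 1.15, 0.530 and 0.417, with log2 ratios of -2.05 and -0.85 in its probe sets. Of 15 Notch genes 3 were under 0.5-fold (20%, against 12.3% of all genes) and none over 2.0-fold. Their median of -0.29 was near the -0.21 of all genes. With the array median, the 75th percentile or quantile normalization 2 were lower, and as deposited or with the controls 7 were. The target *Hey2* was 2.81, 1.29, 1.25 and 0.785. In the insulin-like growth factor (IGF) axis the ligand and its receptor differed in direction, *Igf1r* being 4.71, 2.03, 2.17 and 1.36. The binding protein *Igfbp2* was 2.66, 11.7, 7.42 and 10.8. Of 12 further receptors of the eye 6 were lower, among them *S1pr3*, a sphingosine phosphate receptor, with 18.1, 6.48, 5.84 and 4.09, and *Pdgfra*, a growth factor receptor of the lens epithelium, with 10.2, 4.41, 2.85 and 2.89. Guidance genes had 8 of 25 lower (32%, against 12.3% of all genes) and 5 higher (20%, against 6.6%). Over the 6 scalings 4 to 14 of them were lower and 0 to 5 higher. Of the guidance genes *Sema3d* had the lowest ratio, with 0.982, 0.288, 0.278 and 0.213.

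Of 35 DNA replication and mitosis genes 11 were under 0.5-fold and none over 2.0-fold, and the median log2 ratio was -0.82 at 2 W but 0.06 and 0.12 on the 1 W replicates. In the scalings the 2 W median ranged from -1.44 to -0.50 and the lower genes from 8 to 26. *Mki67*, the proliferation antigen, was 0.806 at day 0, 0.716 and 0.657 at 1 W, then 0.253 at 2 W, or 3.19-fold lower. *Prc1*, a cytokinesis protein, was 0.689, 0.626, 0.633 and 0.197, and *Kif23*, a mitotic kinesin, was 0.321, 0.328, 0.417 and 0.0894. In all 11 genes the 2 W array was the lowest of the 4. The 11 were chosen by a low 2 W level, which favors that order, so it is no separate support. *Pcna*, the brightest member, had a log2 ratio within the fold rule. *Cdkn3*, a phosphatase of the cell cycle, was 0.511, 0.601, 0.523 and 0.130. *Ccnd2*, a D-type cyclin, was lower from 1 W on, with 5.22, 1.27, 1.70 and 1.22. Inhibitors of cyclin-dependent kinases differed, *Cdkn2b* being 0.0186, 0.439, 0.427 and 0.380 and *Cdkn2c* 1.43, 1.06, 1.08 and 0.647, although a second bright probe set of *Cdkn2c* had a log2 ratio of 0.21.

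Of the 11 lower mitosis genes 10 had a promoter entry, and 9 of these held CCAAT on either strand, against 34.0% of all promoter windows, while 5 held TTTGAA, against 16.2%. CCAAT boxes bind NF-Y and TTTGAA is the core of the cell cycle homology region, and pairs of them are known from mitotic genes. The windows of *Mki67* (chr1:199952594-199952843, minus strand) and of *Ccnb2*, cyclin B2, chosen after its values were seen (chr8:79981659-79981908, minus strand), are shown because both hold repeats of both motifs, in capitals on whichever strand they matched (GRCr8):
Mki67: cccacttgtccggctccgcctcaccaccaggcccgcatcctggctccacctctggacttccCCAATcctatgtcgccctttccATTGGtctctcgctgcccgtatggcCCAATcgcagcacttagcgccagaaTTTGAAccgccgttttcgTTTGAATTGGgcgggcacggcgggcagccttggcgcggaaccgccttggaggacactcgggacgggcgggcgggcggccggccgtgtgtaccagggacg
Ccnb2: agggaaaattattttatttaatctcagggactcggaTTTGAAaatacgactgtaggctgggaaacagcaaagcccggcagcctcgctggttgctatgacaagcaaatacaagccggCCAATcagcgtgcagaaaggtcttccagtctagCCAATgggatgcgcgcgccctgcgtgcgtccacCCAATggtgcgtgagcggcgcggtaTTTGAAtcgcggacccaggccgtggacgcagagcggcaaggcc
In *Mki67* the last TTTGAA and a CCAAT on the other strand share a base. *Ccnb2* was 0.501 at day 0, 0.511 and 0.398 at 1 W, then 0.212 at 2 W.

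Of 20 cholesterol synthesis genes 6 were over 2.0-fold and none under 0.5-fold, and the median log2 ratio was 0.64, after 0.10 and -0.11 on the 1 W replicates. *Idi1*, an isomerase of the mevalonate pathway, was 2.92 at day 0, 3.94 and 3.21 at 1 W, then 11.5 at 2 W, or 3.95-fold higher. *Insig1*, a regulator of the pathway and not one of its enzymes, was 3.89, 3.14, 2.54 and 12.2. *Dhcr7*, the last enzyme, was 4.06, 2.91, 2.09 and 9.92. In all 6 genes 2 W was the highest array, an order favored by their choice for a high 2 W level. The list median ranged from 0.02 to 0.96 over the 6 scalings. As deposited 3 genes of the list were higher and 3 lower, with the controls 2 and 3, and with the 75th percentile 10 were higher and none lower. *Fdft1*, squalene synthase, was 0.710, 0.881, 0.64995 and 2.14, but its second bright probe set had a log2 ratio of -0.04. *Fabp5*, a fatty acid carrier, was 21.4 at day 0, 10.1 and 6.34 at 1 W, then 60.4 at 2 W, so that it was below day 0 on both 1 W replicates and above it at 2 W. The 40 ribosomal protein genes had a median of 0.71 with 5 over 2.0-fold, the 68 respiratory chain genes 0.49 with 3, and the 33 proteasome genes 0.38 with 3, and none of the 3 lists had a gene under 0.5-fold. Over the 6 scalings the genes over 2.0-fold ranged from 0 to 22, 0 to 19 and 0 to 12 in these lists, and the medians of the respiratory chain and the proteasome fell below 0 as deposited and with the control scaling.

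Among 39 antioxidant genes 7 were higher (17.9%, against 6.6% of all genes) and 3 lower (7.69%, against 12.3%). Over the 6 scalings 3 to 8 of them were higher and 1 to 10 lower. As deposited 3 were higher and 9 lower, and with the controls 3 and 10. The enzymes of glutathione synthesis *Gclc* and *Gss* were 1.66, 1.49, 1.02 and 6.03, and 2.51, 4.27, 3.86 and 8.64. *Hmox1*, heme oxygenase, was 0.191, 0.523, 0.303 and 0.811. All 3 were highest at 2 W. *S100a4* and *S100a6*, small calcium-binding proteins, were 8.64, 20.1, 17.2 and 51.8, and 2.96, 12.97, 16.4 and 30.2, which made them 5.996-fold and 10.2-fold higher. Circadian clock genes had 8 of 18 members under 0.5-fold and none over 2.0-fold, but 2 under 0.5-fold with the array median, the 75th percentile or quantile normalization and 10 as deposited. *Per3*, a clock repressor, was 0.589, 0.189, 0.187 and 0.156, and *Tef*, an output factor, was 2.98, 1.59, 1.73 and 1.31. Among the other stress lists, 4 of 16 heat shock genes were higher (25%) and 1 lower (6.25%). Of 17 immediate-early genes 5 were higher (29.4%) and none lower, and of 13 p53 targets 3 (23.1%) and 1 (7.69%). The shares over all genes were 6.6% higher and 12.3% lower. Over the 6 scalings the higher genes ranged from 2 to 4, 1 to 7 and 1 to 4 in these lists. The lower genes ranged from 0 to 4, 0 to 4 and 1 to 2. Of 21 organelle clearance and autophagy genes none passed a fold rule. Of 20 glycolysis genes 2 were lower (10%), and of 25 chaperones of the endoplasmic reticulum 1 was lower (4%). Both shares were under the 12.3% of all genes. The hour at which each rat was killed was not found in the sources used here.

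A set of 14 genes was high on the 2 W array alone, by the same rule as the 18 low on it. *Ndrg1*, a stress- and differentiation-induced gene, was 3.41 at day 0, 4.79 and 3.42 at 1 W, then 39.3 at 2 W, and its 2 probe sets had log2 ratios of 3.53 and 3.83. *Ccng1*, a cyclin induced by p53, was 5.26, 5.16, 4.78 and 22.7. *Ctnna2*, *Basp1*, *Gls2* and *Sh3kbp1*, chosen after their values were seen, were 0.795, 1.36, 0.581 and 0.828 at day 0 and 7.32, 8.15, 3.10 and 3.94 at 2 W. The fiber genes *Caprin2* and *Tdrd7*, the ligand *Wnt5b* and the nerve growth factor receptor *Ngfr* were among the 14 as well.

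Macrophage markers were higher at 2 W, with 15 of 18 over 2.0-fold, none under 0.5-fold and a median log2 ratio of 1.74. The 1 W medians were 2.51 and 2.26, and in all 15 genes the 2 W level was below both 1 W replicates. The summed level of the 23 measured markers was 4.73 at day 0, 41.0 and 27.9 at 1 W, then 20.4 at 2 W. *Lyz2*, lysozyme, was 0.961, 9.21, 7.01 and 5.01, *Gpnmb*, a membrane protein of phagocytes, was 1.27, 17.6, 9.57 and 7.33, and *Cybb*, the oxidase of phagocytes, was 0.118, 1.47, 1.15 and 0.958, with a log2 ratio of 0.92 in its second probe set against 3.02. Of 13 complement genes 5 were higher, *C1qa* among them with 0.187, 1.49, 1.29 and 0.857, and *Cd59b*, an inhibitor of the membrane attack complex, was lower with 11.4, 2.38, 2.83 and 3.15. None of 8 neutrophil markers reached the filter, and of lymphocyte and mast cell markers 2 and 1 did, none past a fold rule. Of 21 chemokine and cytokine genes 9 were higher (42.9%, against 6.6% of all genes) and 2 lower (9.52%, against 12.3%). Over the 6 scalings 5 to 11 were higher and 0 to 5 lower. As deposited and with the controls 5 were higher and 5 lower.

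Of 19 antigen presentation genes 5 were over 2.0-fold, all of class II, and 1 was under 0.5-fold. *RT1-Da*, a class II chain, was 0.324 at day 0, 4.29 and 2.07 at 1 W, then 2.12 at 2 W, and *Cd74*, the invariant chain, was 0.487, 6.61, 3.45 and 3.58. *RT1-Bb* and *RT1-Db1* had log2 ratios of 3.08 and 2.80. *B2m*, the class I light chain, had a log2 ratio of 0.39. All 5 class II genes had CCAAT in the promoter window, against 34.0% of all windows, a box of the class II promoter module, and that of *RT1-Da* (GRCr8, chr20:4515165-4515414, plus strand) is shown as the example, with the match, which lies on the other strand, in capitals:
RT1-Da: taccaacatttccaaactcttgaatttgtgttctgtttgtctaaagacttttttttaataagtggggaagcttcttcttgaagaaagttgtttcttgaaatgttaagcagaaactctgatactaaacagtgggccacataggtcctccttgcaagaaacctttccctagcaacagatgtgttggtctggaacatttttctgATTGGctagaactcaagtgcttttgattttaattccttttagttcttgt

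**Figure D5:**
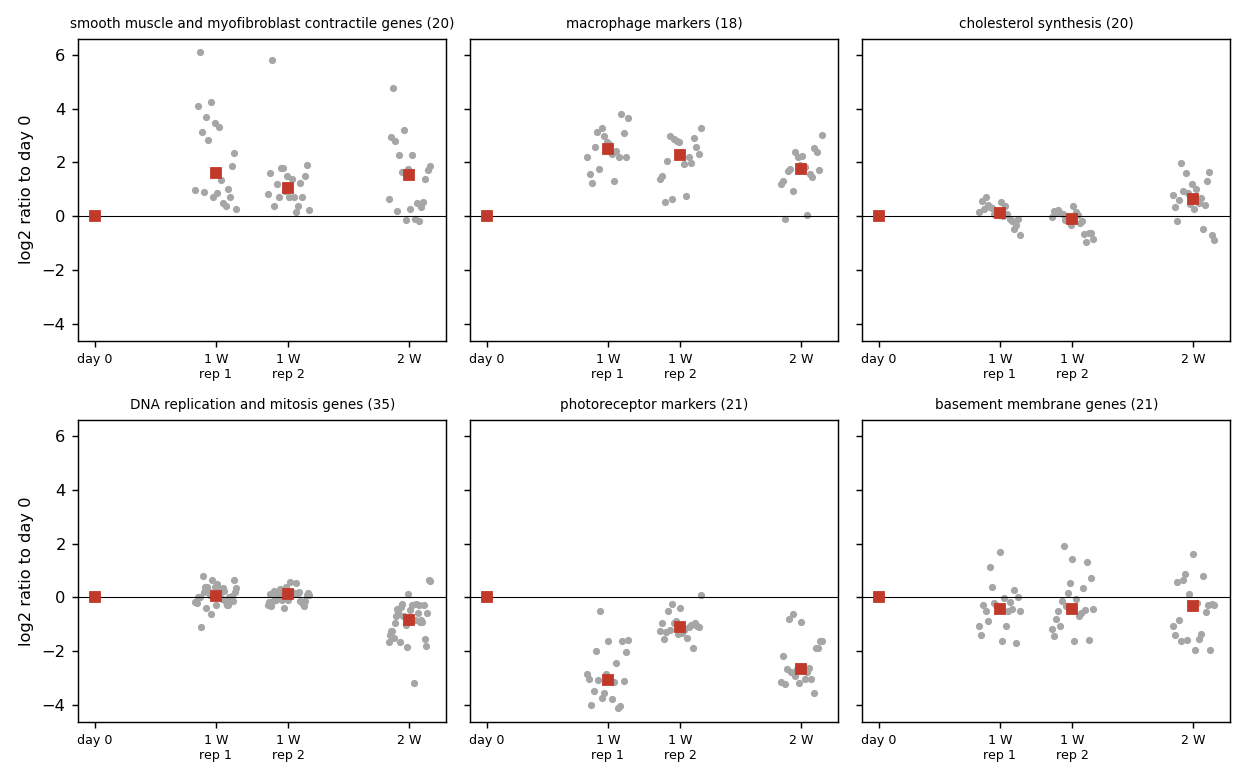
Log2 ratios to day 0 on the replicates at 1 W and on the 2 W array for members at or above the filter (grey points) of 6 gene lists, and their medians (red squares), day 0 being 0. Mitosis and cholesterol genes keep a median near 0 at 1 W and move at 2 W, to -0.82 and 0.64, whereas macrophage markers are highest at 1 W.

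Photoreceptor markers were far lower at 2 W. Of 21 members 18 were under 0.5-fold, all beyond the bar, and the median log2 ratio was -2.66. The 1 W replicates gave -3.07 and -1.08, and the summed level of the 27 measured markers was 94.96 at day 0, 15.3 and 45.0 at 1 W, then 17.9 at 2 W. *Sag*, rod arrestin, was 11.3 at day 0, 1.58 and 4.73 at 1 W, then 1.28 at 2 W, *Pde6b*, a subunit of rod phosphodiesterase, was 6.56, 0.411, 2.28 and 0.699, and *Rp1*, of the photoreceptor axoneme, was 1.66, 0.100, 0.451 and 0.141. The day 0 array was the highest in these genes, and 2 W fell between the 1 W replicates in 13 of 18. *Otx2*, a factor of retina and pigment epithelium, and *Snap25*, a synaptic protein, were 1.48 and 2.18 at day 0 and 0.268 and 0.410 at 2 W. Lens capsule cells are not known to use the phototransduction genes, and the part of neighboring retina in these values was not tested.

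*Prph2*, a protein of outer segment discs chosen after its values were seen, was 9.66, 0.711, 4.15 and 1.18. Its promoter window (GRCr8, chr9:21579075-21579324, minus strand) is shown with TAATCC, the homeodomain site bound by CRX in photoreceptors, in capitals, because 6 of the 14 lower photoreceptor genes with an entry held it on either strand, against 6.34% of all windows:
Prph2: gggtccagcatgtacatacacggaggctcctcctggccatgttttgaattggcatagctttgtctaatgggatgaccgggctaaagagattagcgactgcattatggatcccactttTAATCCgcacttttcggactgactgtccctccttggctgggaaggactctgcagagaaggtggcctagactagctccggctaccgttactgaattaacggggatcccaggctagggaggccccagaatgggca

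Most pigment cell genes and some endothelial markers were higher at 2 W. Of 9 pigment cell genes 6 were over 2.0-fold, *Dct*, an enzyme of melanin synthesis, with 1.86 at day 0, 25.02 and 7.40 at 1 W, then 13.05 at 2 W, and *Mlana* with 0.209, 3.37, 0.933 and 1.92. Their summed level was 12.2 at day 0, 69.3 and 25.4 at 1 W, then 38.2 at 2 W, and the rats were albino by strain. Of 12 endothelial markers 5 were higher, led by *Sox17*, 4 had ratios below 0, and the summed level was 4.09, 6.41, 3.61 and 5.27. As deposited and with the control scaling 2 endothelial markers were higher and 3 lower, and with the filter at the 60th percentile the median of the 5 markers left was -0.56, with 1 higher. The 1 W replicates differed in the same order in contractile, pigment and endothelial genes, replicate 1 being above replicate 2 in all 3 summed levels. This order was not particular to them, since macrophage markers and fiber genes also had it, while photoreceptor markers had the opposite one. How much iris, ciliary body or vessel tissue came with each capsule is not known, and its part in the higher values was not tested. Of 18 neuronal genes 4 were higher and 6 lower, and *Uchl1*, a ubiquitin hydrolase of neurons, was 6.08, 13.7, 9.55 and 24.6. *Mbp*, a myelin protein, was 1.92, 0.482, 0.392 and 0.293, with a log2 ratio of -0.24 in its second bright probe set. Of 14 markers of other retinal cells 5 were lower and of 6 pigment epithelium markers 3, none of either list being higher. Their summed levels were 39.6, 36.8, 48.0 and 42.1, and 6.56, 4.77, 5.96 and 3.39. *Hbb*, beta globin, was 2.11, 0.517, 0.675 and 0.796.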

How the data were processed

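RNA from lens capsules was hybridized to Affymetrix rat genome arrays, 1 each at day 0 and 2 W and 2 at 1 W. The authors deposited probe set intensities on a linear scale, made with Command Console and Expression Console, by a summary method that the sources used here do not name. For arrays their number limits the precision. The 57 control probe sets were left out and each array was divided by its mean. Of 31042 probe sets 20826 had 1 gene symbol in the platform annotation, 436 several and 9780 none, and the latter 2 kinds were left unnamed. Of the 20826, 20758 matched RefSeq by gene identifier and 54 by symbol. Genes took their brightest probe set, and the filter was the 40th percentile. The 1 W replicates set a bar from the 95th percentile of their difference in 20 level bins, which is a yardstick and not a test. Genes were named by a rule: the 25 highest and 25 lowest ratios past the bar, up to 4 members at each end of each list past the fold rule, and the brightest member, with *Tpm1*, *Acta2* and *Dcn*. The members, lists and motifs were chosen with earlier results of these data known. In all, 11 motifs were searched on both strands in 9 lists. Scaling, filter, floor and probe set choice were varied. Scripts ran in Python 3.11.15 with numpy 2.4.6, pandas 2.3.3 and matplotlib 3.10.9 and were tested on simulated data.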

Additional observations from a re-analysis of the deposited data

Results flagged for a closer look

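In 3 named genes both 1 W replicates were over 2-fold below day 0 and the 2 W array over 2-fold above it. *Bfsp1* had a log2 ratio of 3.22 at 2 W against -1.73 and -2.49 at 1 W, *Crygc* 1.84 against -2.94 and -4.02, and *Fabp5* 1.498 against -1.09 and -1.75. The difference between the times was not tested. Of the genes past a fold rule and the bar at 2 W, 65 had both 1 W replicates on the other side of day 0, 30 of them higher at 2 W, and in 4 both 1 W replicates were over 2-fold from day 0. No group held 4 arrays, so single arrays were not checked for distance from their group.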

How the results depend on the processing

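The counts of higher and lower genes changed with the scaling, since the median log2 ratio of -0.21 became 0.06 (divided by the array median), 0.10 (75th percentile), 0.03 (quantile), -0.78 (as deposited) and -0.83 (controls). Against 690 genes over 2.0-fold there were 1109 with the array median, 1199 with the 75th percentile, 302 as deposited, 279 with the controls, 1705 with no filter, 425 with a filter at the 60th percentile and 1096 over all probe sets. Against 1287 under 0.5-fold there were 707, 648, 3808, 4110 and 2086 under the first 5 of these, 788 with quantile normalization and 2688 over all probe sets. Beyond the bar, the 603 higher genes became 986, 1076, 259 and 233 under the 4 scalings named first and 930 over all probe sets, and the 1167 lower became 633, 590, 3523 and 3789, with 718 after quantile normalization and 2322 over all probe sets. Of 62 gene lists 36 had a median above 0, against 15 as deposited and 13 with the controls. Of 273 named genes past 2-fold, 45 came within 2-fold as deposited and 51 with the controls, and 4 of the 8 list medians past 2-fold did so under each of these. Dividing an array by another number shifts every gene alike, so a kept direction of a large ratio is no sign of stability. No paired analysis was possible because each group compared has 1 array, and leaving out an array would have left a side empty. Depth here means signal over background: 32 of the higher genes were under the 20th percentile at day 0 and 13 of the lower ones at 2 W.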
